A study of Rattus norvegicus with 9 samples.

Results

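Raised extracellular potassium was compared with no treatment in zona glomerulosa cells freshly taken from rat adrenals. These cells form the outer layer of the adrenal cortex and make aldosterone. The comparison rested on the 3 potassium tubes (16 mM for 2 h) and the 3 control tubes, which are 6 of the 9 samples of the series. The 3 tubes given angiotensin II were not used. Each of 3 independent experiments, numbered in the labels, gave 1 control and 1 potassium tube from the same cell preparation, and tubes were paired by that number. Control cells stood under basal conditions in DMEM:F12 medium with fatty acid free albumin at 37 °C for the same time, and the potassium tubes differed by the raised ion. All cells had been freed from the gland by enzymes and mechanical dispersion. Strain, sex, age, the number of rats per preparation and whether osmolarity was balanced were not stated in the sources used here. Total RNA was hybridised to Affymetrix Rat Genome 230 2.0 arrays, which give 1 signal in linear array units per probe set.

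Glomerulosa cells hold a strongly negative resting potential through potassium leak channels. A rise in external potassium depolarises them, opens T-type and L-type voltage-gated calcium channels, and lets calcium activate calmodulin-dependent kinases. These kinases phosphorylate CREB-family factors and induce Nr4a nuclear receptors, which act on the gene of aldosterone synthase, while the protein encoded by Star delivers cholesterol to mitochondria. Genes with CREB sites, such as Crem, Sik1 and Nr4a1, are textbook targets of such calcium signals.

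Potassium raised a set of transcription factors and signalling regulators, among them Nr4a2, Giot1, Hhex, Osr2, Scx, Crem, Rgs2, Sik1 and Irs2, each by over 2-fold in every experiment. It lowered another set, among them the bright genes Rab7b, Osgin1, Sema4b, Hmga1 and Fosl1. The amino acid stress list had 10 decreases and 4 increases among 39 genes, and the cytokine and interferon list 9 and 1 among 47. Over all named genes 1.61% fell and 1.57% rose. The decreases were 6 and 3 under median scaling, and 5 and 2 without the block. In lists of 26, 34, 27, 37 and 24 measured genes of channels, pumps, cotransport and calcium stores 2 genes passed, Kcnk5 and Kcns3. Their calls ended in 6 and 7 of 14 other settings. Over all named genes 3.18% passed, and many of the listed genes were too dim for a change to be detected.

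Signals of the 6 arrays had been brought to 1 scale by the depositors, with a trimmed mean between 500.17 and 500.19. Control 2 stood apart from the other arrays. Its median signal was 172.9, against 128.0 to 142.1 on the other 5, and 22.6% of its probe sets read below 50, against 26.0% to 29.5%. Its log2 signals correlated with those of the other arrays at 0.942 to 0.945, and the other pairs at 0.959 to 0.969. The ratios of 3' to 5' probe sets, a sign of RNA integrity, were 2.66 to 3.6 for beta-actin and 1.31 to 1.59 for GAPDH. Control 2 lay inside both ranges, but its ratio for hexokinase, 4.18, was the highest of the 6 (2.44 to 3.84 on the others). Calls of named genes that ended when experiment 2 was left out are given below with the log2 fold change and adjusted p from the other 2 experiments.

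The labelled cell type was checked on marker genes. Dab2, Wnt4, Vsnl1, Rgs4 and Agtr1b, markers of the zona glomerulosa, had mean control signals of 11700, 5359, 6163, 10320 and 2782. The defining marker Cyp11b2 was not analysed here, and Calb2 and Pcp4 were dim, with means of 31.5 and 97.6. Akr1b7, a marker of the neighbouring zona fasciculata, was bright on all arrays (27524 to 29477 in the control tubes), and Cyp11b1 read 5174, 1839 and 2895 in the control tubes of experiments 1, 2 and 3, while Cyp17a1, which the rat adrenal does not use, was near background.

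Summed marker signals of other cell types overlapped between the groups, as ranges that do not use the pairing by experiment. Whether the sums shifted within each experiment was not tested. The summed signals of 18 macrophage markers were 27505 to 35497 in control and 25193 to 34240 in potassium tubes, those of 15 endothelial markers 37459 to 47393 and 40234 to 49286, and those of 18 medulla markers 3915 to 4888 and 3881 to 5136. The sums of 16 capsule fibroblast markers were 21607 to 25675 and 23578 to 27161, and those of 7 fasciculata markers 48241 to 56830 and 49892 to 53077. No member of the 9 lists of other cell types passed limma's test, and 0 to 4 members per list had an unadjusted p below 0.05. The highest counts were 4 of 18 macrophage, 3 of 15 endothelial and 3 of 16 capsule fibroblast markers, against 3966 of all 31042 probe sets. Of 16 glomerulosa markers 1 rose, Nr4a2, and without it their sums overlapped (43059 to 46092 and 44434 to 48666). In RNA from many cells, fewer cells of a type and less RNA per cell cannot be told apart.

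Differences were fitted on log2(signal + 16), a scale that understates changes of dim probe sets, by limma with the experiment as a block. All 31042 probe sets that were not array controls were tested. Past an adjusted p of 0.05 (Benjamini-Hochberg over all of them) were 741, or 2.39%, of which 417 (1.34%) were higher and 324 (1.04%) lower after potassium. The changes were mostly moderate. Of the higher probe sets 86 rose over 2-fold and 9 over 4-fold, and 194 rose under 1.5-fold. Of the lower ones 35 fell over 2-fold and 2 over 4-fold, and 174 fell under 1.5-fold. The median log2 fold change was 0.61 among the higher and -0.56 among the lower calls. By experiment the medians were 0.53, 0.72 and 0.62, and -0.57, -0.58 and -0.54. All 741 had 1 sign in the 3 experiments, which a call with the experiment as a block nearly entails. Groups did not overlap in 389 upward and 299 downward calls, against 5.75% and 9.27% of all probe sets with potassium above and below control.

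Calls were concentrated among bright probe sets. In the dimmest 20% of probe sets 1 of 6208 was called, and in the brightest 20% 504 of 6209 (8.12%), where the median call was 0.51 in size. In the dimmest 20% the median log2 fold change was -0.22, and it was 0.01 in the brightest. Over all probe sets it was -0.06, and it moved to -0.02 when experiment 2 was left out. Scaling the arrays to a common median moved it to 0.05 and the calls to 549 higher and 145 lower, so that 79.1% were higher in place of 56.3%. The experiment number came with the design, and without that block 327 probe sets were called, all 327 among the 741. Without experiment 2 the count was 525, of which 458 were shared. With control 2 alone left out and no block it was 155. Without the dependence of variance on intensity in limma's prior no probe set was called, while 2880 had an unadjusted p below 0.05.

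**Figure D1:**
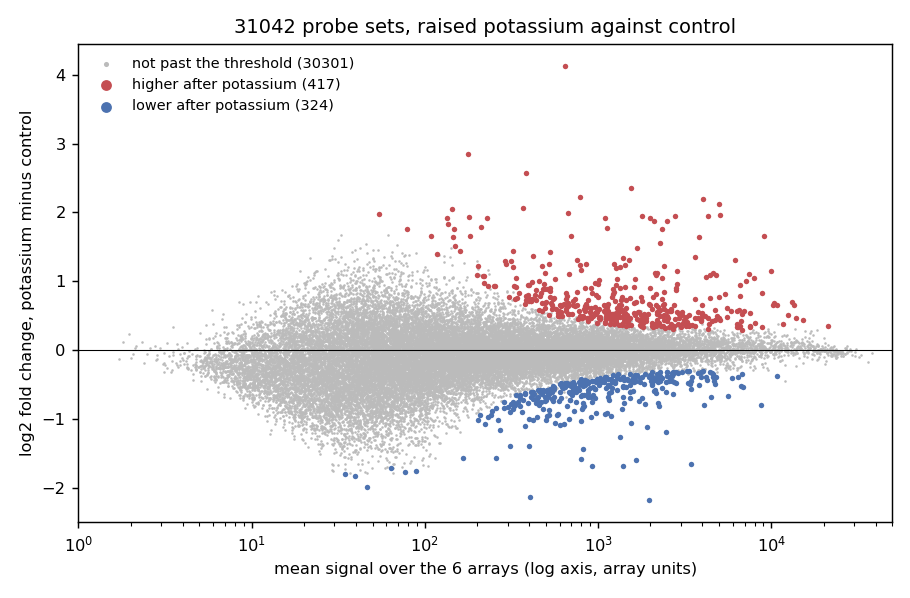
Log2 fold change (potassium minus control, fitted over 3 experiments) against the mean signal of the 6 arrays on a log axis, 1 point per probe set. The 417 higher and 324 lower calls lie mostly at signals above 233, and the point near 4 is Ypel4.

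Where a gene had several probe sets, most of the others had the sign of the call. The calls named 529 genes, 277 higher and 252 lower, and no gene had called probe sets of opposite direction. Of 273 genes with a call and at least 2 probe sets, 29 had all of them called. Their 452 other probe sets had the same sign in 348 cases and were called in 62, and 104 read the opposite way. Among the genes described below, another probe set read the opposite way, without a call, for Bdnf, Egr4, Fas, Gars1, Grm8, Mx2, Prkaa1, Rasgrf1, Selp, Sox4, Srf, Sstr1, Tnf, Tpm1 and Wdr43.

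Regulators of transcription among the increases are described first. Signals are given below in the order of experiments 1, 2 and 3. Nr4a2 encodes an orphan nuclear receptor that acts on steroid enzyme genes. Nr4a2 signals were 422, 438 and 645 in the control tubes and 2735, 2359 and 2699 in the potassium tubes. It rose by 2.36 ± 0.11 on the log2 scale (SE), with an adjusted p of 2.1e-09, and its brighter probe set rose by 1.94 ± 0.12. At both probe sets every potassium array lay more than 2 times above every control array.

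Giot1 signals were 2237, 1563 and 1792 in the control tubes and 8968, 7847 and 7429 in the potassium tubes. Giot1, a zinc-finger repressor of transcription first known from gonadotropin-treated ovary, rose by 2.12 ± 0.08 (adjusted p = 6.2e-10), nearly equally in each experiment (2.00, 2.32 and 2.04). Hhex signals were 2594, 1451 and 2223 in the control tubes and 8982, 7205 and 7893 in the potassium tubes. Hhex, a homeobox factor of endoderm and blood vessel development, rose by 1.97 ± 0.09 (adjusted p = 2.4e-09). The groups lay far apart for both genes, and control 2 was the lowest of the controls in each.

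Osr2 signals were 788, 751 and 919 in the control tubes and 2712, 3495 and 3269 in the potassium tubes. Osr2, an odd-skipped zinc-finger factor of embryonic mesoderm, rose by 1.92 ± 0.10. Scx signals were 613, 722 and 841 in the control tubes and 3322, 2434 and 2815 in the potassium tubes. Scx, the helix-loop-helix factor scleraxis of tendon precursors, rose by 1.95 ± 0.12. These 3 developmental factors had adjusted p-values of 2.4e-09, 3.5e-09 and 2.7e-08. Of 60 measured homeobox, forkhead and other developmental transcription factors 8 rose (13.3%) and 1 fell (1.67%), with a median log2 fold change of -0.05. Over the 14217 named genes, each read at its brightest probe set as the list members were, 3.18% were called, 1.57% higher and 1.61% lower, with a median of -0.05. The list's median was 0.10 without experiment 2.

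The other developmental factors that rose were Hoxa5 (0.99 ± 0.15), Id2 (0.65 ± 0.09), Bhlhe40 (0.67 ± 0.12), Msx1 (0.61 ± 0.13) and Sox4 (0.36 ± 0.08). Id2 encodes a dominant-negative helix-loop-helix protein. The call of Sox4 ended in 6 of 14 other settings and that of Msx1 in 4. Hoxa5 signals were 248, 269 and 299 in the control tubes and 534, 622 and 509 in the potassium tubes, so that the lowest potassium array was above the highest control array. The list thus held a few strong increases beside a large majority that did not pass, and its count of decreases was 5 without experiment 1 and 0 without experiment 2 or 3.

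**Figure D2:**
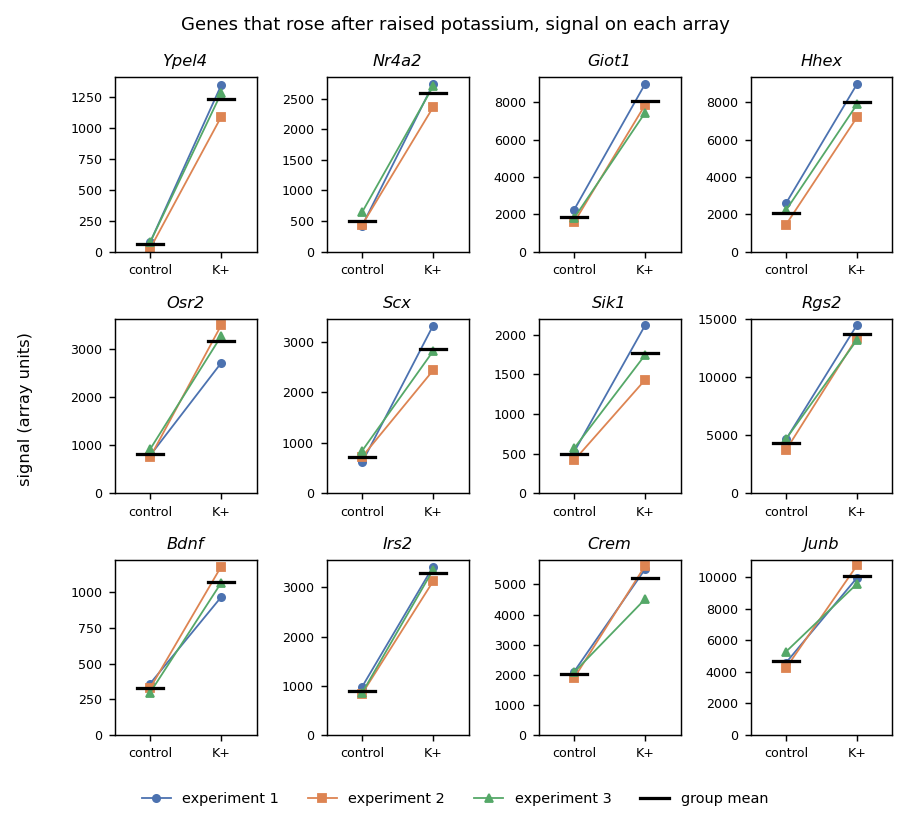
Signal on each of the 6 arrays for 12 genes that rose, 1 panel per gene with its own vertical axis from 0, lines joining the tubes of 1 experiment and bars at the group means. In all 12 panels the 3 potassium arrays lie above the 3 control arrays, and for Nr4a2 and Crem the probe set with the smallest p is drawn.

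Genes of the calcium and depolarisation response formed the list with the highest share of calls (40.8%). Of 49 measured, 18 rose (36.7%) and 2 fell (4.08%), with a median log2 fold change of 0.27. Nr4a2, described above, had the largest increase on this list (1.94). The count of increases was 17 under median scaling, 17 without the replicate block, 18 without experiment 2 and 12 with control 2 alone left out and no block. Rgs2 signals were 4649.5, 3729.8 and 4682 in the control tubes and 14519, 13425 and 13230.1 in the potassium tubes. Rgs2, which shuts off Gq-coupled receptor signalling, rose by 1.66 ± 0.08 (adjusted p = 3.2e-09), and its other probe set by 2.19. The difference was largest in experiment 2, at 1.84.

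Sik1 signals were 520.1, 414 and 566 in the control tubes and 2114, 1428 and 1742 in the potassium tubes. Sik1, the salt-inducible kinase that holds CREB coactivators in the cytoplasm, rose by 1.78 ± 0.11 (adjusted p = 2.5e-08). Crem signals were 2099, 1888 and 2079.5 in the control tubes and 5508, 5618 and 4513 in the potassium tubes. Crem, which encodes both CREB-like activators and the inducible repressor ICER, rose by 1.35 ± 0.09 (adjusted p = 7.8e-08). Of its 6 probe sets 5 rose, by 0.69 to 1.35, and the brightest rose least (0.69 ± 0.08), while the dimmest, at 0.35, did not pass. The array does not say which of these read the ICER form.

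Bdnf signals were 359.8, 328 and 297 in the control tubes and 966, 1179.9 and 1066 in the potassium tubes. Bdnf, the neurotrophin used as a model of calcium-dependent transcription, rose by 1.66 ± 0.13 (adjusted p = 5.3e-07), and its other, dimmer probe set read -0.41 and did not pass. The prostaglandin synthase gene Ptgs2 rose by 1.15 ± 0.09, the AP-1 gene Junb by 1.11 ± 0.09, Nr4a3 by 1.14 ± 0.08 and Nr4a1 by 0.82 ± 0.11. Nr4a1 signals were 6084, 4906 and 8507 in the control tubes and 11968, 10533 and 11218 in the potassium tubes. Its groups did not overlap, although the control of experiment 3 was high and the difference there was smallest (0.40, against 0.97 and 1.10).

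Further increases among such genes were of Tiparp (1.06 ± 0.09), Klf4 (1.00 ± 0.08), Nfil3 (0.94 ± 0.08), Gadd45g (0.87 ± 0.09), Gem (0.78 ± 0.08), Fosl2 (0.71 ± 0.11), Per1 (0.61 ± 0.10), Csrnp1 (0.58 ± 0.08), Plk2 (0.48 ± 0.08) and Jun (0.46 ± 0.08). Gem encodes a small GTPase that inhibits voltage-gated calcium channels. The call of Jun ended under median scaling and that of Per1 without the block. Fos itself read 11527, 10109 and 12599 in control and 13835, 12829.7 and 12848 in potassium tubes. Its groups were separate by a narrow margin, and the difference, 0.21 ± 0.08, did not pass the test (adjusted p = 0.27).

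The 2 members that fell were Fosl1 and Egr4. Fosl1 signals were 3689, 3216 and 3438 in the control tubes and 1279.7, 1561 and 1680.2 in the potassium tubes. Fosl1, the AP-1 subunit Fra-1, fell by 1.19 ± 0.10 (adjusted p = 1.0e-06), and Egr4 by 0.83 ± 0.11, with its other probe set at 0.02. The call of Egr4 ended without the block. Within the AP-1 family Junb, Jun and Fosl2 therefore rose while Fosl1 fell and Fosb read 0.13 ± 0.08 (adjusted p = 0.54). Under quantile normalization 5 members of the list fell.

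Kinases and signal adaptors added several strong increases. Dyrk3 signals were 111, 82.3 and 104 in the control tubes and 753, 571 and 674 in the potassium tubes. Dyrk3, a kinase that dissolves cytoplasmic condensates, rose by 2.57 ± 0.19 with 2.60, 2.58 and 2.53 in the 3 experiments (adjusted p = 3.3e-07). Irs2 signals were 978, 838 and 854 in the control tubes and 3422, 3123 and 3357 in the potassium tubes. Irs2, an adaptor of the insulin receptor and a CREB target in liver, rose by 1.88 ± 0.08 (adjusted p = 1.9e-09). Among 56 stimulus-linked protein kinases 5 rose (8.93%) and 3 fell (5.36%), with a median of 0.03. Prkci (0.38 ± 0.09) and Sgk1 (0.31 ± 0.07) were among those that rose, and protein kinase C delta, Prkcd (-0.49 ± 0.08), and the AMP-activated kinase subunit Prkaa1 (-0.44 ± 0.08) among those that fell. The calls of Sgk1, Prkcd and Prkaa1 ended under median scaling, and the other probe sets of Prkaa1 read 0.02 and 0.21. Without experiment 2 Prkci (0.39, adjusted p = 0.079) and Sgk1 (0.30, adjusted p = 0.11) did not pass.

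The largest fold change of all was of a gene with little known function. Ypel4 signals were 76.4, 26.0 and 76.5 in the control tubes and 1341, 1086 and 1276 in the potassium tubes. Ypel4, of the yippee zinc-finger family, rose by 4.13 ± 0.21 (adjusted p = 3.5e-09). Other increases in the 30 largest were of Tent5a (1.95 ± 0.09), a poly(A) polymerase, Fam13c (1.88 ± 0.10), the mitochondrial carrier gene Slc25a30 (1.64 ± 0.08), Eola2 (1.56 ± 0.08), the elongation factor gene Ell2 (1.34 ± 0.09) and the imprinted zinc-finger gene Plagl1 (1.31 ± 0.12). Their mean control signals all lay above 742, the 80th percentile.

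Spag4, Rasgrf1 and Clasrp, also in the 30 largest, were dim in control tubes. Spag4 signals were 8.19, 255 and 104 in the control tubes and 290.3, 311 and 304 in the potassium tubes. The control of experiment 2 nearly reached the potassium arrays, and its call (adjusted p = 0.043) ended in 10 of 14 other settings. Those of Rasgrf1 (0.039) and Clasrp (0.03) each ended in 6, and the brighter probe set of Rasgrf1 read -0.02. Without experiment 2 Rasgrf1 (1.54, adjusted p = 0.07) and Clasrp (1.32, adjusted p = 0.068) did not pass.

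Promoter sequences were read from RefSeq for assembly GRCr8, as windows from 250 bases before to 50 after each gene's annotated start (300 bases). They were searched on both strands for the full cyclic AMP response element TGACGTCA, to which CREB-family factors bind, for the shorter site TGACG (which every full element contains), for the Nr4a element AAAGGTCA and for TGATGNAA, the core to which ATF4 binds. The full element was in 16 of 225 windows of genes that rose (7.1%), in 11 of 214 of genes that fell (5.1%) and in 335 of 11734 measured genes (2.9%), or 1.9% of all 27457 windows. The shorter site was in 90 of 225 windows of genes that rose, 68 of 214 of genes that fell (31.8%), 29.2% of measured genes and 22.0% of all windows. The Nr4a element was in 0.4%, 0.9% and 1.0%, and in 1.3% of all. The ATF4 core was in 1.8% of windows of genes that rose, 7.0% of genes that fell (15 of 214), 2.2% of measured genes and 3.8% of all. A match describes letters and is not a binding site.

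The following 4 windows of genes that rose are shown because they hold the full element, in capitals. That of Giot1 starts at -248 relative to the gene's start, that of Ell2 at -233, that of Sstr2 at -73 and that of Plk2 at -66. Their locations are chr7:10886916-10887215, minus strand for Giot1, chr2:6921602-6921901, plus strand for Ell2, chr10:99163103-99163402, plus strand for Sstr2 and chr2:43702286-43702585, plus strand for Plk2. Each is written 5′ to 3′ along the gene.
Giot1: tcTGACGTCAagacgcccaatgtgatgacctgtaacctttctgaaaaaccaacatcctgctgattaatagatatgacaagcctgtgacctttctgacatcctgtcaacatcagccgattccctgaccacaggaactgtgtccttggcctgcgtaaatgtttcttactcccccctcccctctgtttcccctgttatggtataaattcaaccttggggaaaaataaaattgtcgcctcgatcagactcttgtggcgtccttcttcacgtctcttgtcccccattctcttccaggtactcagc
Ell2: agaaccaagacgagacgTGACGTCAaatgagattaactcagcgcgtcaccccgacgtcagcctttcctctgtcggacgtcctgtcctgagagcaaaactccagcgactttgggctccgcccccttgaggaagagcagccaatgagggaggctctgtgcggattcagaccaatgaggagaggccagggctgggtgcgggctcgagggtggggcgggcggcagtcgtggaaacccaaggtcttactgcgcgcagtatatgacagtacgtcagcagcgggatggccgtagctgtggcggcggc
Sstr2: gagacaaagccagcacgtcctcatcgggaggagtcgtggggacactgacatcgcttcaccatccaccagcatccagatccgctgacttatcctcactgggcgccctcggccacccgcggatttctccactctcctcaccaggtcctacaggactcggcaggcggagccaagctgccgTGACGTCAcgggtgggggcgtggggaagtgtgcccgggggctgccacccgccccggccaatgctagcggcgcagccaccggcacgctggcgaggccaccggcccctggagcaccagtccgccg
Plk2: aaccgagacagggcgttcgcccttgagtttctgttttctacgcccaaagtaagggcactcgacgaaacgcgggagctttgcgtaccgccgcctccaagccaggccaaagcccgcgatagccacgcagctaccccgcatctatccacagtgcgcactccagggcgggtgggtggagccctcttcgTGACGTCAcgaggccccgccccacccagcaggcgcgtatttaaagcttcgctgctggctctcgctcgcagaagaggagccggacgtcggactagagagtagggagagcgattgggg

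Nr4a1 and Sik1 are shown for several shorter sites in place of a full element, also in capitals and on either strand. Nr4a1 holds 4, starting at -246, -226, -82 and -53, and Sik1 holds 2, starting at -191 and -180. The windows are chr7:134259888-134260187, plus strand, and chr20:9958597-9958896, minus strand. Of the 30 largest increases 26 had a window, of which 2 held the full element and 14 the shorter site. Of the 20 largest decreases 18 had one, of which 3 held the full element and 8 the shorter site.
Nr4a1: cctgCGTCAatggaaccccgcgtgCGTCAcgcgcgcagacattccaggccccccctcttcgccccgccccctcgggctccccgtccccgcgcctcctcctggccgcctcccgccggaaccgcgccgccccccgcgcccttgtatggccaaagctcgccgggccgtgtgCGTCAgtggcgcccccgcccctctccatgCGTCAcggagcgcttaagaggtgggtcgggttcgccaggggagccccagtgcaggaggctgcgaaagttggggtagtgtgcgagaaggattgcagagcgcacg
Sik1: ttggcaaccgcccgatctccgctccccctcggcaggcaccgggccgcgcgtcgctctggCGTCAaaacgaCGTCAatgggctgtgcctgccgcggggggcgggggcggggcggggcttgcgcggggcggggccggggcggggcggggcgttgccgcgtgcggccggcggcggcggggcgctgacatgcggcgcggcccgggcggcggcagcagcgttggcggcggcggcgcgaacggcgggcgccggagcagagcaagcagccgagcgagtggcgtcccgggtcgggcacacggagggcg

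Of 61 secreted peptides and growth factors 4 rose (6.56%, against 1.57% of named genes) and none fell (median 0.04). Nmu signals were 5.43, 97.0 and 18.8 in the control tubes and 456, 205 and 287 in the potassium tubes. Nmu, which encodes the neuropeptide neuromedin U, rose by 2.85 ± 0.50 (adjusted p = 0.0035). Control 2 was far above the other controls, so that the difference was 4.46 in experiment 1 and 0.97 in experiment 2.

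Vegfa, the vascular endothelial growth factor, rose by 0.53 ± 0.08. Vegfa signals were 3005, 3343 and 3416 in the control tubes and 4659, 4739.9 and 4739 in the potassium tubes. Its values were tight in both groups. Stc1, a stanniocalcin, rose by 0.57 ± 0.08 at one probe set and by 0.29 ± 0.07 at its brightest, whose call ended in 9 settings, among them without experiment 2 (0.31, adjusted p = 0.097). Calca, the gene of calcitonin and CGRP, was in the 30 largest increases but not on the list, at 1.91 ± 0.25.

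Of 46 hormone receptor genes of the cortex 4 rose (8.7%) and none fell, with a median of -0.06 that was 0.03 under median scaling. Sstr2 signals were 458, 383 and 621 in the control tubes and 649, 799.9 and 1008 in the potassium tubes. Sstr2, a somatostatin receptor, rose by 0.74 ± 0.13 (adjusted p = 0.0033) and the dim Sstr1 by 1.92 ± 0.40 (adjusted p = 0.014). The other probe sets of Sstr1 read -0.62 and -0.09, and its call ended without experiment 1. Somatostatin inhibits aldosterone secretion through such receptors. The lysophosphatidic acid receptor gene Lpar1 rose by 0.35 ± 0.08 and the ACTH receptor accessory gene Mrap by 0.44 ± 0.08. Without experiment 2 neither Lpar1 (0.34, adjusted p = 0.082) nor Mrap (0.36, adjusted p = 0.063) passed. Without the replicate block 1 receptor was called.

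Many genes of channels that set the membrane potential were too dim for a change to be detected. Of 26 two-pore and inward rectifier potassium channels 18 lay in the dimmest 40% of probe sets. In this list 1 rose, Kcnk5 (3.85%, against 1.57%), and none fell. The median was -0.15, but 0.14 without experiment 2 and 0.07 without control 2 and without the block. Kcnk5 signals were 272, 337 and 252 in the control tubes and 432, 442 and 577 in the potassium tubes. Kcnk5, the pH-sensitive TASK-2 channel, rose by 0.72 ± 0.17 (adjusted p = 0.033). Its groups were separate, yet the call ended in 6 of 14 other settings.

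The leak channel Kcnk3 (TASK-1) is bright in these cells. Kcnk3 signals were 1283, 1683 and 1292 in the control tubes and 1599.8, 1347 and 1929 in the potassium tubes. Its groups overlapped and the difference was 0.19 ± 0.13 (adjusted p = 0.59). Kcnk9 and Kcnj5 were too dim for a fold change to be read, with SEs of 0.47 and 0.44. Of 34 voltage- and calcium-gated potassium channels 22 lay in the dimmest 40%. None rose and 1 fell, Kcns3 (-0.46 ± 0.11), whose groups overlapped and whose call ended in 7 settings, among them without experiment 2 (-0.40, adjusted p = 0.13). The list's median of -0.28 was -0.10 without experiment 2 and -0.12 under quantile normalization. It was -0.15 without control 2 and without the block. The median of all probe sets in the dimmest 20% was -0.22 and in the next 20% -0.16.

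Of 27 calcium and sodium channels 15 lay in the dimmest 40%. None passed limma's test. The unadjusted p lay below 0.05 for 1 higher and 4 lower genes, against 1663 and 2303 of all 31042 probe sets. Cacna1h signals were 1388, 1353 and 1386 in the control tubes and 1194, 577 and 1321 in the potassium tubes. Cacna1h, the T-type channel of glomerulosa cells, read -0.50 ± 0.16 (adjusted p = 0.14), and this rested on experiment 2, since the other differences were -0.21 and -0.07. The L-type channel genes Cacna1c and Cacna1d read 0.00 ± 0.13 and 0.21 ± 0.15, with overlapping groups.

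Calcium pumps, exchangers, stores and buffers also had no call by limma among 37 (2 higher and 1 lower unadjusted), nor did 24 sodium-potassium ATPase and chloride cotransport genes (1 and 1 unadjusted). The plasma membrane calcium pump gene Atp2b1 read 0.22 ± 0.08 and the pump subunit gene Atp1b1 0.12 ± 0.07. Of 43 calmodulin kinases, calcineurin genes and their nuclear factors Crem was the only call (5 unadjusted). Camk1 read 0.05 ± 0.12, Creb1 0.16 ± 0.10 and Atf1 -0.02 ± 0.08, and their groups overlapped.

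Of 44 genes of cyclic nucleotide synthesis, breakdown and kinase A 1 passed (2.27%, against 3.18% of all named genes). It was Rapgef4 (0.45 ± 0.10), an exchange factor switched on by cyclic AMP. Akap12 was called higher at 1 of its 2 probe sets, while the other read 0.19 and did not pass. The call of Rapgef4 ended without the block and without experiment 3. Of 38 regulators of G protein signalling and MAP kinase feedback 3 rose (7.89%), Rgs2, Dusp14 (0.77 ± 0.09) and Peli1 (0.35 ± 0.08), and 1 fell, the cytokine signalling inhibitor Socs5 (-0.80 ± 0.08). Without experiment 2 Peli1 did not pass (0.32, adjusted p = 0.09). The count of increases was 6 without experiment 3. These counts read each gene at its brightest probe set. Dusp1 rose by 1.09 at 1 of its 2 probe sets, and the other read 0.31 and did not pass. Rgs4 was likewise called higher at 1 of 2 probe sets, with the other at 0.12. The calls of Akap12, Dusp1 and Rgs4 are not followed through other settings here.

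**Figure D3:**
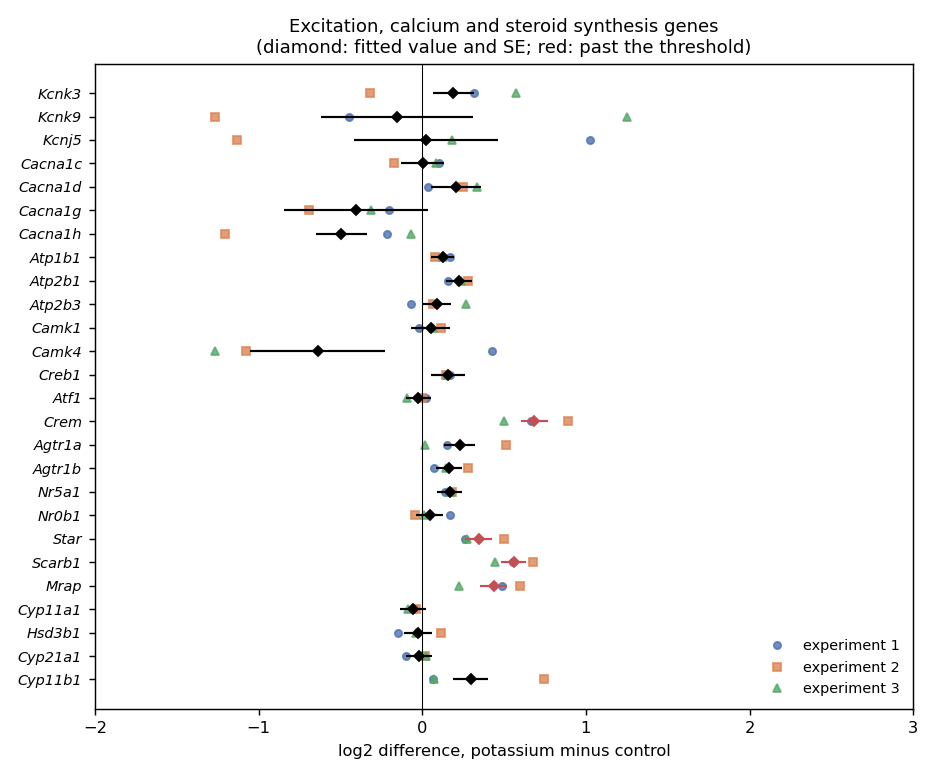
Log2 difference of potassium minus control for 26 genes of excitation, calcium signalling and steroid synthesis, with the fitted value and its SE (diamond and bar) and the 3 single experiments (coloured marks). Crem, Star, Scarb1 and Mrap passed the test, drawn in red, and the fitted values of the steroid enzymes Cyp11a1, Hsd3b1 and Cyp21a1 lie between -0.06 and -0.02.

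Of 30 genes of steroid hormone synthesis 3 rose, against 1.57% of named genes, Scarb1, Star and Mrap, and none fell, with a median of 0.01. Without the block none was called, and without experiment 2 Scarb1 alone. Star signals were 20542, 16584 and 19492 in the control tubes and 24650.0, 23429 and 23527 in the potassium tubes. Star rose by 0.34 ± 0.08 (adjusted p = 0.04), and its other probe set read 0.27 ± 0.09 and did not pass. The groups were separate, with the widest gap in experiment 2, and the call ended without that experiment (0.27, adjusted p = 0.26), without the block and under median scaling.

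Scarb1 signals were 5886, 4477 and 6657 in the control tubes and 8662, 7171 and 9077 in the potassium tubes. Scarb1, the receptor that takes up cholesterol esters from high-density lipoprotein, rose by 0.56 ± 0.08 (adjusted p = 0.00038), and both of its probe sets were called. The call ended without the block. The side-chain cleavage gene Cyp11a1 read -0.06 ± 0.08, Hsd3b1 -0.02 ± 0.09, Cyp21a1 -0.02 ± 0.08 and Cyp11b1 0.30 ± 0.11. None of the 4 passed, and the first 3 were near the top of the arrays' range. Nr5a1, the nuclear receptor that controls steroid enzyme genes, read 0.17 ± 0.08, and its inhibitor Nr0b1 0.05 ± 0.08.

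Of 29 cholesterol genes 3 rose (10.3%) and 1 fell (3.45%), with a median of 0.10. Insig1 signals were 3128, 2930.1 and 3057 in the control tubes and 4054, 4217 and 4373 in the potassium tubes. Insig1, the sterol sensor's anchor in the endoplasmic reticulum, rose by 0.47 ± 0.08 (adjusted p = 0.0018), the synthesis gene Idi1 by 0.42 ± 0.07 and the LDL receptor ligase gene Mylip by 0.37 ± 0.09. The lipoprotein receptor gene Vldlr fell by 0.56 ± 0.13 with overlapping groups. The call of Mylip ended in 8 settings, among them without experiment 2 (0.38, adjusted p = 0.064), and that of Vldlr in 7. That of Idi1 ended without the block, and no member was called with control 2 left out and no block.

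Clock genes and their outputs moved in both directions. Of 21 measured 5 rose (23.8%) and 2 fell (9.52%), with a median of -0.003. Nfil3 signals were 4743, 3694 and 5179 in the control tubes and 8563, 8127 and 9245 in the potassium tubes. Nfil3, a repressor at D-box elements, rose by 0.94 ± 0.08 (adjusted p = 1.9e-06), and the activator Rora by 0.90 ± 0.09. Rora's groups were likewise separate, from 1799 to 2160 and from 3356 to 4009.

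Cry2 (0.71 ± 0.10), Per1 (0.61 ± 0.10) and Bhlhe40 (0.67 ± 0.12) rose as well. Per1 signals were 537, 789 and 822 in the control tubes and 843, 1284 and 1165 in the potassium tubes. Per1 is a clock gene with CREB sites and is also induced by aldosterone in kidney. The promoter window of Per1 searched here held neither the full element nor the shorter site. Bhlhe41 (-0.53 ± 0.13) and Nr1d1 (-0.35 ± 0.09) fell, and none of the list fell under median scaling, under quantile normalization or without experiment 2 (Bhlhe41 -0.42, adjusted p = 0.24, and Nr1d1 -0.33, adjusted p = 0.15).

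Of 23 osmotic and salt response genes 3 rose, Per1, Hspa4l (0.44 ± 0.09) and Sgk1 (13.0%, against 1.57% of named genes), with a median of 0.06, and the osmotic transcription factor Nfat5 read 0.20 ± 0.08 (adjusted p = 0.25). Of 31 heat shock and folding genes Bag3 (0.76 ± 0.08) and Hspa4l rose (6.45%) and Hspa4 (-0.58 ± 0.10) fell (3.23%, against 1.61%). Bag3 is a co-chaperone of Hsp70, and its signals were 3146, 3391 and 3279 in control and 5773, 5554 and 5350.2 in potassium tubes. No osmotic gene was called without the block, and Hspa4l did not pass without experiment 2 (0.38, adjusted p = 0.076).

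Of 48 genes of oxidative phosphorylation 2 rose (4.17%), with a median of 0.002. Ndufa5 signals were 1229, 688 and 1384 in the control tubes and 4084, 3412 and 3318 in the potassium tubes. Ndufa5, an accessory subunit of complex I, rose by 1.75 ± 0.13 (adjusted p = 5.0e-07), and Ndufs4 by 0.47 ± 0.10. The call of Ndufs4 ended in 5 settings, among them without the block, without experiment 1 and without experiment 2 (0.48, adjusted p = 0.057). Of the 48 genes 7 had an unadjusted p below 0.05, against 3966 of all 31042 probe sets. No cell cycle gene of 34 passed limma's test (3 higher and 1 lower unadjusted).

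Among the decreases, bright genes are described first. Osgin1 signals were 5606, 4746 and 5341 in the control tubes and 1602, 1396 and 1984 in the potassium tubes. Osgin1, an oxidative stress response gene that restrains growth, fell by 1.66 ± 0.09 (adjusted p = 5.1e-09). Sema4b signals were 2275, 2837 and 2398 in the control tubes and 714, 909 and 821 in the potassium tubes. Sema4b, a membrane semaphorin, fell by 1.60 ± 0.09 (adjusted p = 7.2e-09). In both genes every potassium array was far below every control array.

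Rab7b signals were 1112, 1591 and 1558 in the control tubes and 494, 368 and 417 in the potassium tubes. Rab7b, a small GTPase of transport between endosomes and the Golgi, fell by 1.69 ± 0.14 (adjusted p = 1.8e-06), least in experiment 1 (-1.15, against -2.07 and -1.86). Its dimmer probe set read -1.07 ± 0.34 and did not pass (adjusted p = 0.14), and there experiment 1 fell most (-1.85, against -0.81 and -0.57). The chromatin protein gene Hmga1 fell by 1.26 ± 0.12 (adjusted p = 5.0e-06), the heparan sulfate proteoglycan gene Sdc1 by 1.09 ± 0.13 and the death receptor gene Fas by 1.40 ± 0.17, with another probe set at 0.07. Mediator subunit Med7 (-1.07 ± 0.13), Bles03 (-1.06 ± 0.09), Zfp672 (-1.04 ± 0.11), the ubiquitin ligase gene Herc3 (-0.97 ± 0.13) and the translation inhibitor gene Eif4ebp1 (-0.97 ± 0.10) also fell.

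Tpm1, a tropomyosin, fell by 1.00 ± 0.13 at 1 of its 7 probe sets. Its brightest probe set read 0.00. Which transcript form each probe set reads was not stated in the sources used here.

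The 2 largest decreases among named genes were of dim ones. Ahrr signals were 58.4, 125 and 69.6 in the control tubes and 15.7, 7.56 and 3.05 in the potassium tubes. Ahrr, the repressor of the aryl hydrocarbon receptor, fell by 1.99 ± 0.47 (adjusted p = 0.031) to near background, and the protease gene Htra3 by 1.75 ± 0.40 (adjusted p = 0.026). Both calls ended in 5 settings, among them without experiment 2 (Ahrr -1.70, adjusted p = 0.12, and Htra3 -1.67, adjusted p = 0.087). Grm8 signals were 131, 936 and 210.2 in the control tubes and 88.9, 88.8 and 93.8 in the potassium tubes. The decrease of Grm8, 1.57 ± 0.39, rested on control 2, and without experiment 2 it did not pass (-0.76, adjusted p = 0.44). Its other probe sets read 0.05 and 0.27.

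**Figure D4:**
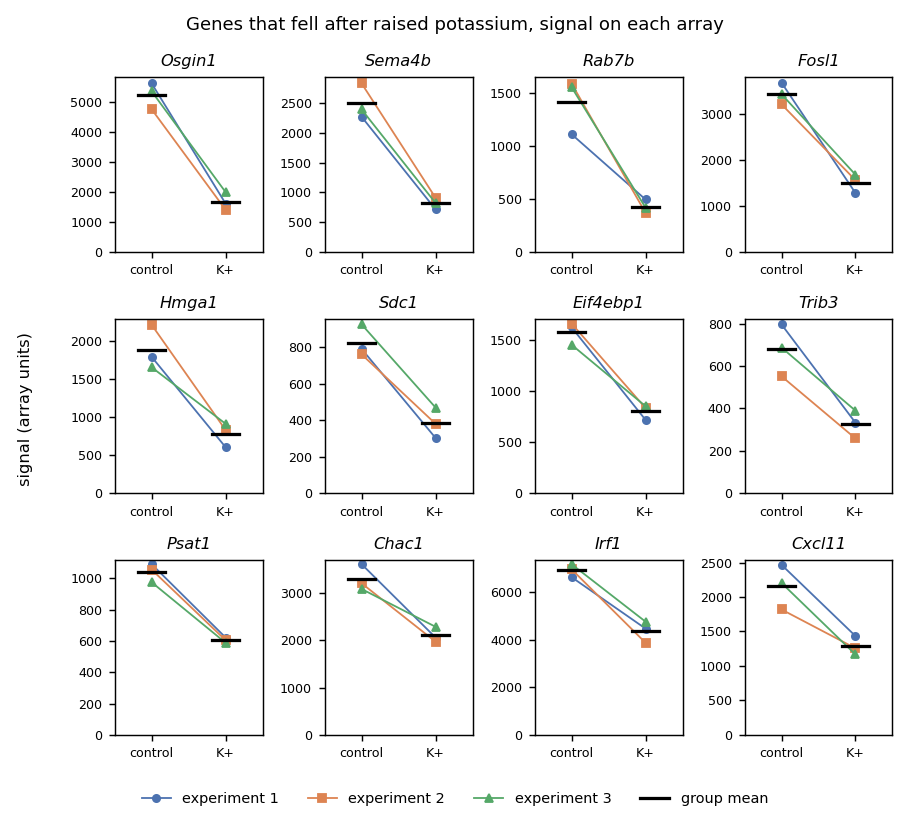
Signal on each of the 6 arrays for 12 genes that fell, 1 panel per gene with its own vertical axis from 0, lines joining the tubes of 1 experiment and bars at the group means. In all 12 panels the 3 potassium arrays lie below the 3 control arrays.

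Genes of the amino acid stress response, which the factor ATF4 drives when amino acids run short, had more decreases than increases. Of 39 measured 10 fell (25.6%) and 4 rose (10.3%), with a median log2 fold change of -0.28, against 1.61%, 1.57% and -0.05 over all named genes. The counts were 6 and 3 under median scaling, 9 and 3 without experiment 2 and 5 and 3 without the block. They were 3 and 0 with control 2 alone left out and no block. Trib3 signals were 796, 552 and 687 in the control tubes and 333, 258 and 389.5 in the potassium tubes. Trib3, a pseudokinase that feeds back on ATF4, fell by 1.02 ± 0.14 (adjusted p = 0.00036), and its other probe sets by 1.40 and 1.11.

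Chac1 signals were 3612, 3207 and 3086 in the control tubes and 2059, 1971 and 2287 in the potassium tubes. Chac1, which degrades glutathione, fell by 0.65 ± 0.09 (adjusted p = 0.00029). Psat1 signals were 1089.8, 1055 and 975 in the control tubes and 622, 604 and 588 in the potassium tubes. Psat1 of serine synthesis fell by 0.77 ± 0.10 (adjusted p = 0.00034), as did its next enzyme Psph (-0.76 ± 0.14) and asparagine synthetase, Asns (-0.62 ± 0.11). For Psat1 the 3 potassium values were tight, and all groups named here were separate.

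Herpud1 (-0.40 ± 0.07), the tRNA synthetase genes Gars1 (-0.47 ± 0.09) and Aars1 (-0.31 ± 0.08), Vldlr and Aldh18a1 (-0.53 ± 0.14) made up the other decreases. Without experiment 2 Gars1 (-0.39, adjusted p = 0.068), Aars1 (-0.35, adjusted p = 0.056) and Aldh18a1 (-0.38, adjusted p = 0.28) did not pass, and the other probe set of Gars1 read 0.27. The 4 members that rose were Cebpb (0.57 ± 0.08), Mthfd2 (0.55 ± 0.08), Ppp1r15a (0.52 ± 0.07) and Ddit4 (0.36 ± 0.08), the last of which did not pass without experiment 2 (0.35, adjusted p = 0.071). Mthfd2 is an enzyme of mitochondrial folate metabolism and a usual ATF4 target, and Ppp1r15a directs the phosphatase that reverses the stress block on translation. The list was thus split in direction.

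Of the 10 members that fell 8 had a promoter window, and 4 of these held the ATF4 core. The windows of Trib3 and Chac1 are shown with the core in capitals, read on the opposite strand in both. It starts at -21 in Trib3 (chr3:161275484-161275783, minus strand) and at -167 in Chac1 (chr3:126795881-126796180, plus strand).
Trib3: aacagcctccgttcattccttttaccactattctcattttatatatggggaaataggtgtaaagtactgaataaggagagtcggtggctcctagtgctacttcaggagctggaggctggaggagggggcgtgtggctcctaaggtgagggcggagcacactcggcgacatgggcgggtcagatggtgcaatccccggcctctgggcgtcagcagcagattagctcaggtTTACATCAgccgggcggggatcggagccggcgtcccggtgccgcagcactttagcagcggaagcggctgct
Chac1: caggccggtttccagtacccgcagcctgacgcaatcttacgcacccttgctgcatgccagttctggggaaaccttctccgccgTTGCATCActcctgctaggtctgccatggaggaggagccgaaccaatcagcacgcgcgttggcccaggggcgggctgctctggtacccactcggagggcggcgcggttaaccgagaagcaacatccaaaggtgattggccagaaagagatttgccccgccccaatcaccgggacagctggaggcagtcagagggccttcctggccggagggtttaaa

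Cytokines, chemokines and interferon response genes had 9 decreases (19.1%) and 1 increase (2.13%) among 47 (median -0.15). The count of decreases was 3 under median scaling, 5 when experiment 2 was left out and 2 without the block. Irf1 signals were 6623, 6953 and 7165 in the control tubes and 4462, 3866 and 4755 in the potassium tubes. Irf1, an interferon-induced transcription factor, fell by 0.67 ± 0.08 (adjusted p = 9.3e-05). Cxcl11 signals were 2468, 1819 and 2205 in the control tubes and 1434, 1256 and 1166 in the potassium tubes. The chemokine gene Cxcl11 fell by 0.74 ± 0.09 (adjusted p = 0.00014), and the groups were separate for both genes.

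Tnf (-0.60 ± 0.08), the adhesion receptor gene Selp (-0.46 ± 0.10), Cxcl9 (-0.56 ± 0.12), Stat2 (-0.56 ± 0.13), Isg15 (-0.32 ± 0.08), Ccl4 (-0.32 ± 0.08) and Il1b (-0.32 ± 0.08) also fell, and the interferon-induced Mx2 rose (0.42 ± 0.10). The other probe sets of Tnf, Selp and Mx2 read 0.15, 0.12 and -0.56. The call of Tnf ended without the block, that of Selp in 5 settings and those of Cxcl9 and Stat2 in 6. Without experiment 2 Stat2 (-0.42, adjusted p = 0.15), Isg15 (-0.26, adjusted p = 0.2), Ccl4 (-0.35, adjusted p = 0.081), Il1b (-0.36, adjusted p = 0.069) and Mx2 (0.40, adjusted p = 0.096) did not pass. Tnf, Ccl4 and Il1b are made by macrophages. Of the 18 macrophage markers summed above none was called, and 12 had a negative log2 fold change (66.7%, against 58.2% of all named genes). Whether the share of macrophages changed was not tested. Ccl4 shows how the groups can overlap while experiments move together. Ccl4 signals were 1798, 3928 and 2543 in the control tubes and 1461, 3259 and 1932 in the potassium tubes. Each potassium tube lay below its own control, but preparations differed more than treatments.

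**Figure D5:**
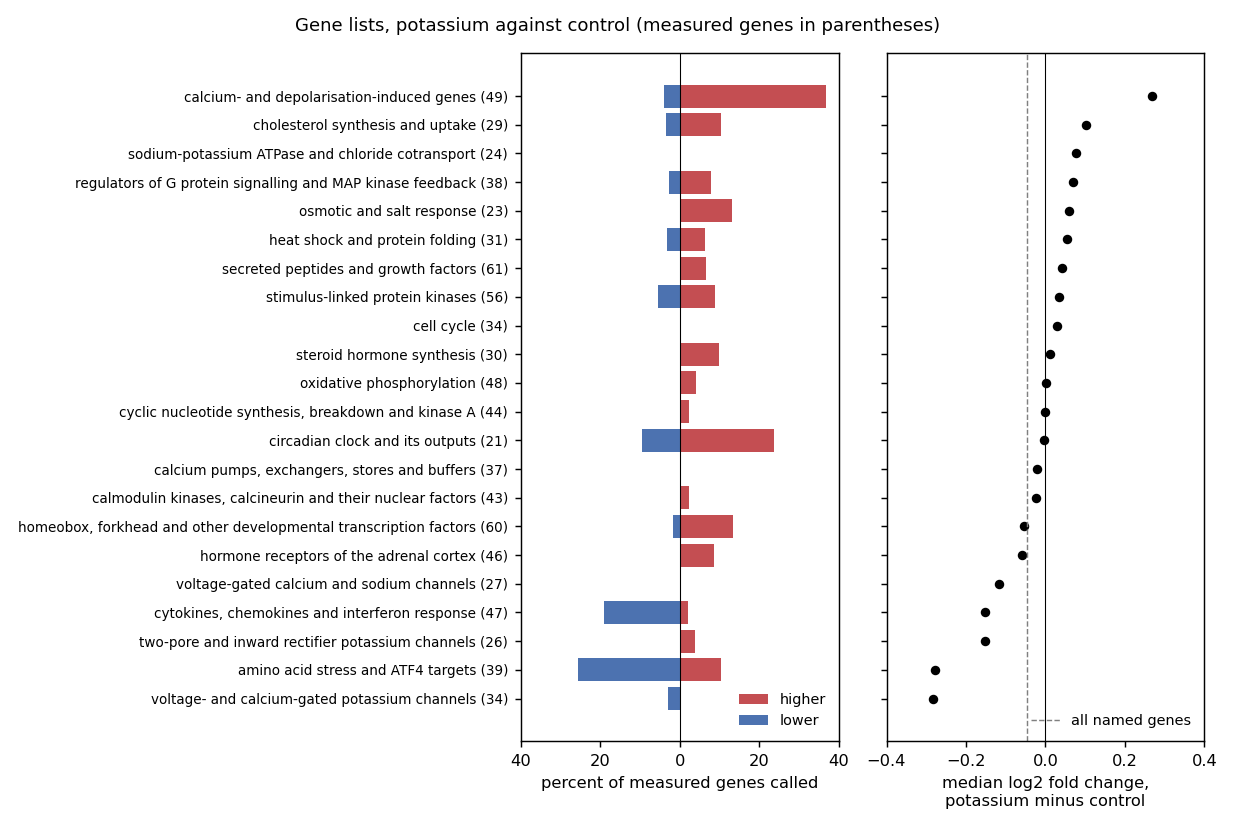
For 22 gene lists, the percent of measured genes called higher (to the right) or lower (to the left) after potassium, and the list's median log2 fold change beside that of all named genes (dashed line, -0.05). The list of calcium and depolarisation genes has the highest median (0.27), and those of amino acid stress (-0.28) and voltage- and calcium-gated potassium channels (-0.28) the lowest. Without experiment 2 these were 0.19, -0.23 and -0.10.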

How the data were processed

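The deposited table holds 1 linear intensity per probe set and array. Per the submitters' processing notes GCOS, the array maker's software, was used, and its version, background method and probe set summary were not stated in the sources used here. Of 31099 probe sets 57 array controls were left out. Symbols came from the platform annotation, updated through RefSeq genes of GRCr8 (20826 probe sets with 1 symbol, 14217 genes, 436 with several, 9780 with none). Groups and experiment numbers came from the sample titles, and the pairing from the design text. Control and potassium deviations from the group means correlated at 0.09, 0.06 and 0.04 within experiments 1, 2 and 3, and at -0.06 to 0.01 between experiments.

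Values were fitted as log2(signal + 16) with limma 3.58.1 in R 4.3.3 (group and experiment, eBayes with an intensity trend, 2 residual and 13.9 prior degrees of freedom), Benjamini-Hochberg adjusted over 31042 probe sets at 0.05. With 3 experiments their number limits precision. The fit was tested on simulated data. The members, gene lists, naming rule and settings were chosen with earlier results of these data known. Named were the 30 largest increases and 20 largest decreases, the 12 largest of each among bright probe sets, 8 genes with all probe sets called, up to 6 members per list by smallest p, and fixed glomerulosa genes. Genes of lists are read at their brightest probe set. Beyond the rule, other called list members, other probe sets and Calb2, Pcp4, Dab2, Wnt4, Vsnl1, Akr1b7 and Cyp17a1 were named after their values were seen. There were 23 pathway and 10 marker lists, and 1 pathway list is not reported here. Alternatives were other scalings, pseudocounts, filters and priors, all 9 arrays, no block, and leaving out experiments or control 2.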

Additional observations from a re-analysis of the deposited data

How the results depend on the processing

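In 14 other settings no called probe set of a named gene changed direction. Of 22 gene list medians, read to 2 decimals, 9 changed sign in at least 1 setting, 7 of them within 0.1 of 0. The other 2 were of two-pore and inward rectifier potassium channels (-0.29 to 0.19) and calcium and sodium channels (-0.31 to 0.03). Medians that round to 0.00 were not counted. Among these, clock genes (-0.07 to 0.12), cyclic nucleotide genes (-0.09 to 0.12) and oxidative phosphorylation (-0.06 to 0.12) lay on both sides of 0. The 741 calls (417 higher, 324 lower) became 327 (207 and 120) without the replicate block, 155 (109 and 46) without control 2 and without the block, a setting chosen after the data had been seen, and 0 (0 and 0) without the intensity trend, where 2880 had an unadjusted p below 0.05. Median scaling gave 145 lower calls. Leaving out 1 experiment gave 525 to 926 calls, 302 to 509 higher and 223 to 417 lower. The other settings gave 525 to 854 calls, among them 746 with a filter at the 40th percentile (18625 probe sets tested) and 854 at the 60th (12417 tested). Of 107 named called probe sets 54 lost the call without the trend alone, 26 in 2 or 3 settings and 27 in 4 or more, among them Nr1d1 in 12 and Spag4 in 10. Without experiment 2 the call ended for 21, under median scaling for 11 and without the block for 30. The causes were not tested. The dimmest 40% of probe sets gave 8 calls, so changes there were mostly not detectable. Above that level lay 26 of 30 steroid, 29 of 29 cholesterol, 19 of 23 osmotic and 48 of 48 oxidative phosphorylation genes. The shares over all named genes are thus not matched to these lists.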

Other observations

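Gene groups below were assembled after the values had been seen, from textbook membership, and get no test. Of 123 measured nucleolar and ribosome assembly factors 25 fell (20.3%) and 1 rose (0.813%), against 1.61% and 1.57% of all named genes. A negative log2 fold change was read for 99 (80.5%, median -0.23), against 58.2% of all named genes (median -0.05). Rrs1 signals were 977, 1107 and 1051 in the control tubes and 671, 583 and 472 in the potassium tubes. Rrs1, a factor of the large subunit, fell by 0.86 ± 0.12 (limma, adjusted p = 0.00052), with separate groups. Nop58 signals were 5320.4, 4959.7 and 6041 in the control tubes and 3791, 4148 and 4426 in the potassium tubes. Nop58, of the methylating box C/D particle, fell by 0.40 ± 0.08 (adjusted p = 0.0082). Wdr43 (-0.72 ± 0.12), Nmd3 (-0.54 ± 0.09), Esf1 (-0.69 ± 0.11), Utp3 (-0.47 ± 0.08), Pno1 (-0.57 ± 0.10) and Gar1 (-0.43 ± 0.09) were others that fell, while the kinase gene Riok3 rose (0.33 ± 0.07), a call that ended without experiment 2 (0.33, adjusted p = 0.082). The other probe set of Wdr43 read 0.16. The count of decreases was 17 under quantile normalization and 18 without experiment 2, but 4 under median scaling, where the median was -0.11.

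Of 19 cytosolic aminoacyl-tRNA synthetases, which charge tRNAs with amino acids, 6 fell (31.6%) and none rose (limma), and 16 had a negative log2 fold change (84.2%, median -0.28). Cars1 signals were 1718, 2055 and 1909 in the control tubes and 964, 1227 and 1314 in the potassium tubes. Cars1 fell by 0.70 ± 0.09 (adjusted p = 0.00022), Rars1 by 0.51 ± 0.08, Iars1 by 0.55 ± 0.10 and Yars1 by 0.46 ± 0.09. Gars1 and Aars1, the other 2, are also on the amino acid stress list. The count was 6 under quantile normalization, 5 without experiment 2 and 1 under median scaling. Of 50 actin cytoskeleton and serum response factor target genes 5 fell and 2 rose (median -0.04), against 1.61% and 1.57% of all named genes. Among those that fell were the factor's own gene Srf (-0.60 ± 0.09, with another probe set at 0.79) and Fhl3 (-0.82 ± 0.10). Decreases numbered 3 under median scaling, where the median was 0.07, 7 under quantile normalization and 3 without experiment 2.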
